A study of Caenorhabditis elegans with 11 samples.

Results

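RNA of sterile Caenorhabditis elegans hermaphrodites under utx-1 RNAi was compared with RNA of sterile hermaphrodites with no RNAi named, all kept without males. The comparison took the 3 arrays titled as utx-1 RNAi without males and the 3 titled as day 8 hermaphrodites without males with no RNAi in the title, so 6 of the 11 arrays of the series. It covered all 22548 probe sets that are not array controls, whatever their values. Differences are utx-1 RNAi minus no RNAi on the log2 scale.

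The gene utx-1 encodes a demethylase that removes methyl groups from lysine 27 of histone H3, a mark of silenced chromatin that in worms is written by the MES-2, MES-3 and MES-6 complex. Its paralogs in the jmjd-3 family carry the same type of catalytic domain. In C. elegans, lowering utx-1 is known to lengthen life, and the FOXO factor DAF-16, which the insulin receptor DAF-2 holds in check, is the pathway most often named with it. RNAi in worms lowers the mRNA that matches a double-stranded RNA.

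All worms compared were mutants in glp-1, of the allele e2141. GLP-1 is the Notch receptor on which proliferation of the germ line depends, and worms with this allele are sterile when grown warm. Embryos came from 15 °C and the plates stood at 25 °C for 8 days, with 500 hermaphrodites on each 10 cm plate and OP50 bacteria named as food. Each array measured RNA of 200 whole hermaphrodites, and the labels call the samples of a condition independent experiments. The groups used were utx-1 RNAi without males (n = 3) and no RNAi without males (n = 3), and, for a side-by-side reading, utx-1 RNAi with males (n = 2) and no RNAi with males (n = 3), where plates held 250 hermaphrodites and 250 males. No empty-vector group is named and the way the RNAi was given is not stated in the sources used here, so loss of utx-1 and any other effect of the RNAi treatment, its food included, cannot be told apart.

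Each array gave 1 log2 expression value per probe set, made by RMA, which corrects background, evens out the arrays and combines the probes of a set. The array medians were 3.87, 3.86 and 3.77 under utx-1 RNAi (replicates 1, 2 and 3), against 3.87, 3.86 and 3.89 with no RNAi. Replicate 3 under utx-1 RNAi was therefore the lowest of the 6, and the median difference of all probe sets was -0.03. All 6 markers of intestine, 4 of pharynx and 7 of neurons and 5 of 6 markers of muscle lay above the array median, and the intestinal set averaged 9.41 to 9.62 under utx-1 RNAi and 9.29 to 9.48 with no RNAi. Oocyte and eggshell markers were dim, at 3.09 to 3.63 under utx-1 RNAi and 3.39 to 3.94 with no RNAi. Yet 4 of 9 of them lay above the array median, as did 3 of 9 markers of germ cells and 14 of 26 of sperm. Among markers of epidermis it was 3 of 6 and among those of males 1 of 4. A level above that median therefore does not by itself show that a tissue was present. In RNA of whole animals, fewer cells of a type and less RNA per cell cannot be told apart.

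The targeted gene was the largest fall of the comparison. The brighter of the probe sets for utx-1 read 6.42, 4.81 and 5.13 under utx-1 RNAi, against 11.54, 12.45 and 12.01 with no RNAi. The dimmer one read 4.76, 4.69 and 4.41 under utx-1 RNAi, against 7.04, 7.08 and 7.14 with no RNAi. At both, every utx-1 RNAi array lay far below every array without RNAi. The differences were -6.55 ± 0.36 (adjusted p = 6.09e-06) and -2.47 ± 0.09 (adjusted p = 1.27e-07), where ± gives the standard error of the fit. On the linear scale 1.07% of the signal remained at the brighter probe set and 18.1% at the dimmer one. Ranked by level with no RNAi, the brighter one exceeded 99.2% of probe sets and the dimmer one 80.5%. The probe sequences were not analysed here, so a second target of the brighter probe set was not tested.

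**Figure D1:**
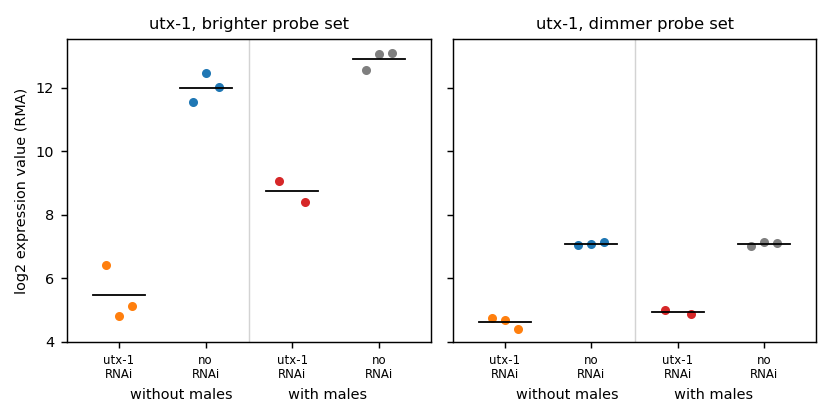
Log2 expression values (vertical axis) of both utx-1 probe sets in each array (points) with the group mean (bar), for utx-1 RNAi and no RNAi, without males (left pair of each panel) and with males (right pair). Without males the utx-1 RNAi arrays sit at 4.81 to 6.42 in the left panel and 4.41 to 4.76 in the right panel, below all arrays without RNAi.

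The neighbours of utx-1 in chromosome order did not pass the test. One is dhhc-14, a palmitoyltransferase-family gene, with differences of -0.04 (adjusted p = 0.854) and 0.31 (adjusted p = 0.255) at its probe sets. The other is jmjd-3.1, a paralogous H3K27 demethylase gene, which read 4.07, 3.83 and 3.62 under utx-1 RNAi, against 3.34, 3.63 and 3.61 with no RNAi. Its groups overlapped, and the difference was 0.31 ± 0.11 (adjusted p = 0.189). Of the 8 genes measured for enzymes that add or remove H3K27 methylation, 1 fell, utx-1 itself, and 0 rose, with a median of -0.02. Over all 17118 genes, each read at its brightest probe set as in all lists here, 29 passed (0.169%), 6 up (0.0351%) and 23 down (0.134%), with a median of -0.03. The paralog jmjd-3.3 had a difference of 0.25 (adjusted p = 0.163) and mes-3, a subunit of the methyltransferase complex, one of -0.20 (adjusted p = 0.19). Of 16 genes for H3K4 methylation, 0 rose and 0 fell, and the smallest p belonged to the methyltransferase gene set-2 (-0.26, adjusted p = 0.169).

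Few probe sets passed an adjusted p under 0.05 over all 22548. With both of utx-1 counted, 37 did (0.164%), of which 8 rose (0.0355%) and 29 fell (0.129%). They stand for 34 named genes, 1 probe set shared by several genes and 1 that the annotation table does not list. Only 1 probe set rose by over 2-fold and 7 fell by over 2-fold, both of utx-1 among them. The smallest change called was -0.41, and 12 of the 37 lay below a log2 level of 5 in all 6 arrays, where RMA compresses changes. The groups did not overlap at any of the 37, while 22.2% of all probe sets had no overlap. Since the 37 were picked by p-values from these same arrays, their lack of overlap, here and for single genes below, is no separate support. A further 33 probe sets had an adjusted p between 0.05 and 0.06, and 3824 (17.0%) had an unadjusted p under 0.05, 1365 higher (6.05%) and 2459 lower (10.9%).

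Leaving out 1 of the 6 arrays gave 5 to 21 calls. Of the 37, 6, 5 and 6 remained without replicates 1, 2 and 3 of utx-1 RNAi, and 5, 18 and 9 without replicates 1, 2 and 3 of no RNAi. Both utx-1 probe sets and igcm-4 passed in all 6 cases, C32H11.4 in 5, nep-22 in 4 and clec-10 in 3. Every other call below was lost in at least 4 of the 6 cases, with adjusted p-values of up to 0.169 and the same sign. With each array centred on its median, 36 rose and 28 fell, and after quantile normalization 43 rose and 50 fell.

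The rises were led by Y47H10A.5, igcm-4 and nep-22. The gene igcm-4, named for the immunoglobulin-like cell adhesion family, read 5.96, 5.98 and 5.99 under utx-1 RNAi, against 4.98, 5.1 and 5.15 with no RNAi. The utx-1 RNAi arrays lay close together and above all arrays without RNAi, and the rise was 0.90 ± 0.08 (adjusted p = 0.0011). The largest rise was that of Y47H10A.5, with 9.50, 9.70 and 9.44 under utx-1 RNAi, against 8.06, 8.80 and 8.61 with no RNAi (1.05 ± 0.16, adjusted p = 0.0308). Replicate 1 with no RNAi was the lowest array there, and the groups did not overlap. The gene nep-22, of the neprilysin family of membrane metallopeptidases that cut peptides, read 6.73, 7.08 and 6.73 under utx-1 RNAi, against 6.10, 6.06 and 5.79 with no RNAi (0.87 ± 0.11, adjusted p = 0.0228). All of its utx-1 RNAi arrays were the higher ones.

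The other 5 rises were between 0.60 and 0.81. The C-type lectin gene clec-10, of a family with many members expressed in the gut and induced by bacteria, rose by 0.81 (adjusted p = 0.0228) at a dim probe set, and its other probe set showed 0.28 (adjusted p = 0.115). The tyrosyl-tRNA synthetase gene yars-1 rose by 0.63 (adjusted p = 0.0308). Its other probe sets showed 0.29 (adjusted p = 0.09) and 0.39 (adjusted p = 0.145), in the same direction. F10D2.10 rose by 0.76 (adjusted p = 0.0328), F19C7.2 by 0.72 (adjusted p = 0.0229) and F52G2.3 by 0.60 (adjusted p = 0.0322). F19C7.2 was bright, with 10.48, 10.56 and 10.46 under utx-1 RNAi, against 9.59, 9.93 and 9.82 with no RNAi.

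**Figure D2:**
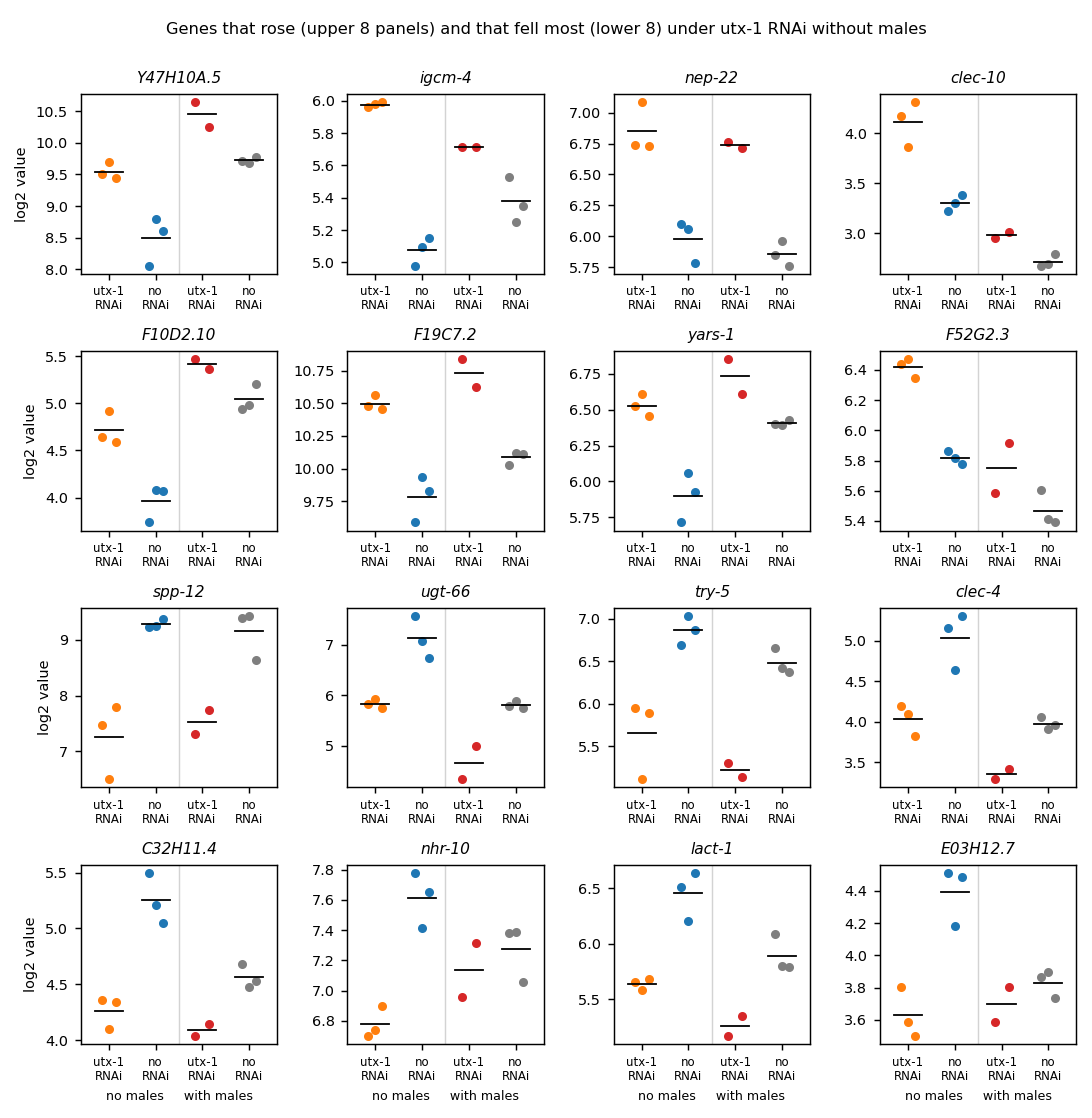
Log2 expression values (vertical axes, which differ between panels) of the 8 genes that rose (upper 8 panels) and of 8 of the largest falls outside utx-1 (lower 8 panels), 1 point per array with the group mean as a bar. In each panel utx-1 RNAi stands left of no RNAi, first without and then with males; without males the groups do not overlap in any panel, and spp-12 shows the widest spread under utx-1 RNAi, 6.49 to 7.80.

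The deepest fall outside utx-1 was that of spp-12, a gene for a saposin-like protein, a family of small secreted proteins some of which puncture bacterial membranes. It read 7.48, 6.49 and 7.80 under utx-1 RNAi, against 9.23, 9.24 and 9.37 with no RNAi. Every utx-1 RNAi array lay below every array without RNAi, replicate 2 was the lowest, and the difference was -2.02 ± 0.29 (adjusted p = 0.0308), which left 24.6% of the linear signal. A relative, spp-4, fell by 0.54 ± 0.09 (adjusted p = 0.0489) at a dim level of 3.28 to 3.45 under utx-1 RNAi and 3.83 to 3.96 with no RNAi. Of 34 lysozyme and saposin-like genes, 2 fell and 0 rose, and 9 were lower and 1 higher at an unadjusted p under 0.05, against 11.2% lower and 5.67% higher (16.9% in all) of all genes. Their median was -0.19, beside -0.03 for all genes, and -0.15 beside 0.01 with centred arrays. The relatives spp-11 (-0.53, adjusted p = 0.0687) and spp-27 (-0.42, adjusted p = 0.0872) did not pass the test.

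Among the C-type lectins, clec-4 fell. It read 4.19, 4.09 and 3.82 under utx-1 RNAi, against 5.16, 4.64 and 5.3 with no RNAi, a difference of -1.0 ± 0.15 (adjusted p = 0.0308). Of 220 lectin genes read at their brightest probe set, 1 fell and 0 rose, with 32 lower and 11 higher at an unadjusted p under 0.05. In all 19.5% of the lectins had such a p, near the 16.9% of all genes (11.2% lower and 5.67% higher). The largest difference of those named here belonged to clec-174, at 8.79, 7.70 and 8.71 under utx-1 RNAi, against 9.87, 9.92 and 10.39 with no RNAi. Its groups did not overlap, yet the difference of -1.66 ± 0.37 had an adjusted p of 0.076. Of 40 antimicrobial and infection response genes, 0 rose and 0 fell, with a median of -0.05 and 27 differences below 0. Among them irg-1 had a difference of 0.58 (adjusted p = 0.148) and irg-2 one of 0.64 (adjusted p = 0.147), and replicate 1 with no RNAi was the lowest array for both.

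A detoxification gene, ugt-66, fell to 40.8% of its linear signal. It encodes a UDP-glucuronosyltransferase, an enzyme that couples sugars to small molecules so that they can be excreted. It read 5.83, 5.93 and 5.75 under utx-1 RNAi, against 7.56, 7.08 and 6.74 with no RNAi, and fell by 1.29 ± 0.19 (adjusted p = 0.0308). The arrays without RNAi were spread more widely, and all lay above the utx-1 RNAi arrays. Of 64 such genes 1 fell and 0 rose, with 18 lower and 7 higher at an unadjusted p under 0.05 and a median of -0.05, and 1 to 6 higher when 1 of the 6 arrays was left out. With all 6 arrays 39.1% of the 64 had such a p, beside 16.9% of all genes. Close to the threshold were ugt-14 (-0.81, adjusted p = 0.0538), ugt-8 (-0.92, adjusted p = 0.0659) and ugt-44 (-0.58, adjusted p = 0.0687). Of 73 cytochrome P450 genes 0 rose and 0 fell, and cyp-13B1 had a difference of 0.82 ± 0.24 (adjusted p = 0.125).

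The nuclear hormone receptor gene nhr-10 fell as well. In worms NHR-10 switches on the propionate shunt, a set of enzymes that breaks down propionate when vitamin B12 is short. It read 6.70, 6.74 and 6.90 under utx-1 RNAi, against 7.78, 7.41 and 7.65 with no RNAi, and fell by 0.84 ± 0.13 (adjusted p = 0.0308). Its second probe set showed -0.32 (adjusted p = 0.128). Its partner nhr-68 read 3.69, 3.53 and 3.51 under utx-1 RNAi, against 3.86, 4.07 and 4.20 with no RNAi (-0.47, adjusted p = 0.0837). Of 13 genes of propionate breakdown, 1 fell (nhr-10) and 0 rose. The shunt enzyme genes acdh-1 (-0.15, adjusted p = 0.31) and hphd-1 (-0.23, adjusted p = 0.211) did not pass, and acdh-1 was dim in all 6 arrays. A second receptor gene, nhr-11, fell by 0.68 ± 0.10 (adjusted p = 0.0308), with -0.40 (adjusted p = 0.0949) at its other probe set. Of 254 nuclear hormone receptor genes at their brightest probe set 1 fell, with 38 lower and 16 higher at an unadjusted p under 0.05. Leaving out 1 of the 6 arrays gave 21 to 35 lower and 8 to 15 higher. The fewest lower, 21, came without replicate 1 of no RNAi and the fewest higher, 8, without replicate 1 of utx-1 RNAi. With all 6 arrays 21.3% of the 254 had such a p, beside 16.9% of all genes.

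Further metabolic genes fell by smaller amounts. The gene lact-1, named for a beta-lactamase-type domain, read 5.66, 5.58 and 5.68 under utx-1 RNAi, against 6.52, 6.21 and 6.64 with no RNAi (-0.82 ± 0.12, adjusted p = 0.0308). The fatty acid and retinol binding protein gene far-7 read 8.88, 9.0 and 8.95 under utx-1 RNAi, against 9.60, 9.46 and 9.45 with no RNAi (-0.56 ± 0.09, adjusted p = 0.0308). The utx-1 RNAi arrays were the lower ones throughout for both. The acyltransferase-family gene oac-6 fell by 0.54 (adjusted p = 0.0308), at levels of 2.72 to 2.80 under utx-1 RNAi and 3.17 to 3.38 with no RNAi.

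For ogt-1 and pnp-1, 1 probe set of the gene passed and the other did not, and the gap between them was not tested. OGT-1 adds the sugar GlcNAc to nuclear and cytoplasmic proteins, and its brighter probe set read 8.73, 8.76 and 8.89 under utx-1 RNAi, against 9.52, 9.21 and 9.42 with no RNAi (-0.59 ± 0.09, adjusted p = 0.0308). Its dimmer probe set read 6.85, 6.73 and 6.85 under utx-1 RNAi, against 6.88, 6.65 and 6.89 with no RNAi, and the difference there was 0.00 (adjusted p = 0.991). PNP-1 is a purine nucleoside phosphorylase, and pnp-1 fell by 0.53 ± 0.09 (adjusted p = 0.0426) at its dimmer probe set, while the brighter one showed -0.14 (adjusted p = 0.429). The same count held for tag-123, with -0.53 (adjusted p = 0.0308) and -0.05 (adjusted p = 0.781), and for W06H8.5, with -0.41 (adjusted p = 0.0491) and -0.19 (adjusted p = 0.435). Which transcripts each probe set covers was not analysed here.

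The remaining called genes are given by their sequence names, and no role is stated for them here. C32H11.4 had the smallest p among the falls outside utx-1. It read 4.36, 4.1 and 4.34 under utx-1 RNAi, against 5.50, 5.21 and 5.05 with no RNAi, and its groups stood apart at -0.99 ± 0.12 (adjusted p = 0.0121). F49F1.5 read 5.50, 5.61 and 5.56 under utx-1 RNAi, against 6.24, 6.24 and 6.46 with no RNAi (-0.76 ± 0.10, adjusted p = 0.0287). E03H12.7 read 3.80, 3.58 and 3.5 under utx-1 RNAi, against 4.51, 4.18 and 4.49 with no RNAi (-0.77 ± 0.11, adjusted p = 0.0308). In both, all utx-1 RNAi arrays were the lower ones. Smaller falls were those of ZK287.4 (-0.59, adjusted p = 0.0351), C50F7.3 (-0.57, adjusted p = 0.0308), R10H10.4 (-0.57, adjusted p = 0.0308), T23F11.2 (-0.55, adjusted p = 0.0491) and Y71A12C.2 (-0.48, adjusted p = 0.036). Of these 5, all but T23F11.2 stayed under a log2 level of 5 in all 6 arrays.

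No list of fat metabolism held a call. Of 29 lipase genes 6 were lower and 1 higher at an unadjusted p under 0.05, with a median of -0.12. Leaving out 1 of the 6 arrays gave 5 to 10 lower, with 10 without replicate 3 of no RNAi. The lipase gene lips-10 came closest to the threshold (-0.61, adjusted p = 0.0517). With all 6 arrays 24.1% of the 29 had such an unadjusted p, beside 16.9% of all genes. The fatty acid elongase gene elo-3 read 6.95, 6.93 and 6.88 under utx-1 RNAi, against 6.45, 6.51 and 6.44 with no RNAi. Its groups did not overlap, at 0.45 ± 0.08 (adjusted p = 0.0517), and it passed with centred arrays (adjusted p = 0.042, and 0.0375 to 0.201 over all 18 alternatives). Of 59 genes of acyl-CoA synthetases and peroxisomal beta-oxidation, 11 were lower and 1 higher. Leaving out 1 of the 6 arrays gave 5 to 11 lower, with 5 without replicate 1 of no RNAi. With all 6 arrays 20.3% of the 59 had an unadjusted p under 0.05, beside 16.9% of all genes. Among the 59 were cpt-4 (-0.47, adjusted p = 0.0733) and acs-20 (-0.50, adjusted p = 0.077). The vitellogenin genes, which encode yolk proteins made in the intestine, were bright and near 0 in difference: vit-2 read 11.81, 11.81 and 11.93 under utx-1 RNAi, against 11.92, 11.85 and 11.89 with no RNAi (-0.03, adjusted p = 0.839). Of 5 measured, 0 rose and 0 fell.

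In the cuticle and nervous system the calls were single genes. The collagen gene col-142 read 4.40, 4.07 and 4.24 under utx-1 RNAi, against 4.81, 4.76 and 4.73 with no RNAi (-0.53 ± 0.09, adjusted p = 0.0437). It was the only called gene of 146 cuticle collagens, of which 36 were lower and 1 higher at an unadjusted p under 0.05, and 121 had a difference below 0. In all 25.3% of the collagens had such a p, beside 16.9% of all genes. The median of the collagens was -0.16, beside -0.03 for all genes, and with centred arrays it was -0.12 beside 0.01, with 27 lower and 2 higher. Leaving out 1 of the 6 arrays gave 20 to 44 lower, with 20 without replicate 1 of no RNAi. Of 80 Hedgehog-related and Patched-related genes, many of them active in the worm epidermis, 21 were lower and 1 higher, and the named members nearest the threshold were ptr-11 (-0.55, adjusted p = 0.0669) and wrt-2 (-0.48, adjusted p = 0.0733). In all 27.5% of the 80 had an unadjusted p under 0.05, beside 16.9% of all genes. The 6 markers of epidermis averaged 4.66 to 4.77 under utx-1 RNAi and 4.76 to 5.03 with no RNAi. Of these markers 4 are themselves collagen genes, and both that were lower at an unadjusted p under 0.05 are among them, col-140 (-0.56, adjusted p = 0.214) and rol-6 (-0.28, adjusted p = 0.169). The other markers encode the transcription factors ELT-1 and ELT-3, with differences of 0.01 (adjusted p = 0.981) for elt-1 and 0.26 (adjusted p = 0.447) for elt-3.

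The kinesin gene unc-104, whose motor carries synaptic vesicle precursors along axons, fell at 1 of its probe sets. That probe set read 5.79, 5.60 and 5.73 under utx-1 RNAi, against 6.38, 6.17 and 6.43 with no RNAi (-0.62 ± 0.10, adjusted p = 0.0431), and the other showed 0.11 (adjusted p = 0.486). The neuropeptide receptor-family gene frpr-4 fell by 0.47 ± 0.08 (adjusted p = 0.0437), at levels of 3.52 to 3.64 under utx-1 RNAi and 4.03 to 4.06 with no RNAi. Of 50 synaptic and neuronal genes 1 fell and 0 rose. The GABA synthesis gene unc-25 (-0.47, adjusted p = 0.145) and the GABA vesicle transporter gene unc-47 (-0.33, adjusted p = 0.101) did not pass. Of 83 genes for FMRFamide-like and other neuropeptides, 0 rose and 0 fell.

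Of genes tied to reproduction, try-5 fell. TRY-5 is a serine protease known from the seminal fluid of C. elegans males, where it activates sperm. The probe set read 5.95, 5.11 and 5.89 under utx-1 RNAi, against 6.69, 7.03 and 6.87 with no RNAi, and fell by 1.21 ± 0.19 (adjusted p = 0.0308). All 6 arrays came from plates without males. The other male markers were dim, with means of 2.91 under utx-1 RNAi and 3.11 with no RNAi for lov-1, 2.97 and 3.13 for mab-3 and 2.69 and 2.69 for pkd-2, none of them past the threshold. In a longer list of 14 male-specific genes 1 fell and 0 rose, and 12 differences were below 0. At an unadjusted p under 0.05, 5 of the 14 were lower and 0 higher (35.7%), beside 16.9% of all genes. Leaving out 1 of the 6 arrays gave 1 to 5 lower. The 4 markers together averaged 3.42 to 3.63 under utx-1 RNAi and 3.91 to 3.99 with no RNAi, a set that includes try-5, and their part in its fall was not tested.

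Sperm genes were dim and held no call. Of 54 sperm genes 13 were lower and 1 higher at an unadjusted p under 0.05, and the list had a median of -0.18, or -0.14 with centred arrays. In all 25.9% of the 54 had such a p, beside 16.9% of all genes. Leaving out 1 of the 6 arrays gave 3 to 18 lower, with 3 without replicate 3 of utx-1 RNAi and 7 without replicate 3 of no RNAi. The 26 sperm markers averaged 3.70 to 4.10 under utx-1 RNAi and 4.0 to 4.29 with no RNAi, so the ranges overlapped. Most of these markers are major sperm protein genes read by probe sets that can bind several genes. Counts of sperm genes therefore need not stand for that many separate readings. The major sperm protein gene msp-50 read 3.58, 3.44 and 3.29 under utx-1 RNAi, against 3.70, 3.78 and 3.82 with no RNAi (-0.33, adjusted p = 0.106). Of 47 germ cell genes 0 rose and 0 fell, with a median of -0.08, and glp-1 itself had a difference of 0.08 (adjusted p = 0.864). Of 52 genes of cell division and DNA replication 0 passed in each direction and 2 were lower at an unadjusted p under 0.05.

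Histone genes held no call. Of 37 measured, 11 were lower and 1 higher at an unadjusted p under 0.05, with a median of -0.10. In all 32.4% of the histone genes had such a p, beside 16.9% of all genes. With centred arrays 6 were lower and 5 higher, and leaving out 1 of the 6 arrays gave 5 to 10 lower, with 5 without replicate 3 of no RNAi. The histone genes his-1 (-0.48, adjusted p = 0.0997) and his-4 (-0.70, adjusted p = 0.1) were read by probe sets that can bind several histone genes. For his-4 replicate 2 under utx-1 RNAi, at 6.16, was the lowest array, with 6.88 and 6.96 in the other replicates and 7.42, 7.22 and 7.46 with no RNAi.

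The insulin pathway, through which lowering utx-1 is known to act on lifespan, held no call. Of 22 genes from the insulin receptor to FOXO, 0 rose and 0 fell, with a median of 0.00. Only 0.169% of all genes passed, so 0 calls in a list of this size does not set it apart. At an unadjusted p under 0.05, 2 of the 22 were higher and 3 lower (22.7%), beside 16.9% of all genes. The kinase gene akt-1, which acts between receptor and DAF-16, read 8.36, 7.99 and 8.33 under utx-1 RNAi, against 8.67, 8.46 and 8.78 with no RNAi (-0.41 ± 0.13, adjusted p = 0.149). The stress factor gene skn-1 had a difference of -0.40 (adjusted p = 0.148) and the lipid phosphatase gene daf-18 one of -0.33 (adjusted p = 0.254). The brightest probe set of daf-16 read 7.90, 7.92 and 7.95 under utx-1 RNAi, against 8.06, 8.05 and 8.06 with no RNAi. Its groups did not overlap, and the difference of -0.13 had an adjusted p of 0.452. The probe sets of daf-2 were dim, between 2.33 and 3.14 in all 6 arrays, and the largest of their differences was -0.14 (adjusted p = 0.54). Of 24 insulin-like peptide genes 0 passed, with ins-1 at -0.26 (adjusted p = 0.162), ins-22 at -0.31 (adjusted p = 0.204) and ins-4 at 0.30 (adjusted p = 0.246). At an unadjusted p under 0.05, 1 of the 24 was higher and 4 lower (20.8%).

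Genes known to respond to DAF-16 held no call. Of 26 measured, 0 passed, with 3 higher and 5 lower at an unadjusted p under 0.05 and a median of -0.13. In all 30.8% of the 26 had such a p, beside 16.9% of all genes. Without replicate 1 of no RNAi 0 were higher and 3 lower. The superoxide dismutase gene sod-3, a common reporter of DAF-16 activity, read 6.85, 6.74 and 6.71 under utx-1 RNAi, against 6.33, 6.62 and 6.62 with no RNAi (0.24 ± 0.09, adjusted p = 0.225). The metallothionein gene mtl-2 had a difference of 0.30 (adjusted p = 0.219). The glyoxylate cycle gene icl-1 had one of -0.33 (adjusted p = 0.121) and the glutathione S-transferase gene gst-4 one of -0.31 (adjusted p = 0.137). The largest of those named was that of dod-24, a gene that DAF-16 is known to lower, at 8.08, 7.34 and 8.12 under utx-1 RNAi, against 9.23, 9.13 and 9.03 with no RNAi. Its groups stood well apart, at -1.28 ± 0.24 (adjusted p = 0.0574), and it passed with only the 6 arrays in the fit (adjusted p = 0.046, and 0.023 to 0.172 over all 18 alternatives).

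Protein turnover, translation and RNAi pathways held no call at the brightest probe sets. Of 33 proteasome subunit genes 7 were higher and 0 lower at an unadjusted p under 0.05, with a median of 0.08 and 4 differences below 0. In all 21.2% of the 33 had such a p, beside 16.9% of all genes. With centred arrays 9 were higher and the median was 0.12, and leaving out 1 of the 6 arrays gave 0 to 11 higher. The subunit genes rpt-5 (0.25, adjusted p = 0.191) and pas-7 (0.26, adjusted p = 0.181) had the largest named differences. Of 69 genes for translation factors and tRNA synthetases 10 were higher and 4 lower, with 4 to 11 higher when 1 of the 6 arrays was left out (4 without replicate 2 of utx-1 RNAi), and iars-1, an isoleucyl-tRNA synthetase gene, had a difference of 0.30 (adjusted p = 0.164). With all 6 arrays 20.3% of the 69 had an unadjusted p under 0.05, beside 16.9% of all genes. Of 75 cytosolic ribosomal protein genes 0 were higher and 1 lower.

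Of 50 genes of RNAi and small RNA pathways, 7 were higher and 3 lower at an unadjusted p under 0.05. In all 20% of the 50 had such a p, near the 16.9% of all genes. The Argonaute gene csr-1 read 5.37, 5.13 and 5.3 under utx-1 RNAi, against 4.60, 4.96 and 4.94 with no RNAi (0.43 ± 0.12, adjusted p = 0.115). The RNA-dependent RNA polymerase gene rrf-2 had a difference of 0.48 (adjusted p = 0.14), nrde-2 of the nuclear RNAi pathway one of 0.27 (adjusted p = 0.122) and sid-2, which takes up double-stranded RNA in the gut, one of 0.23 (adjusted p = 0.14). At csr-1 all utx-1 RNAi arrays were the higher ones. The group median was -0.01.

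**Figure D3:**
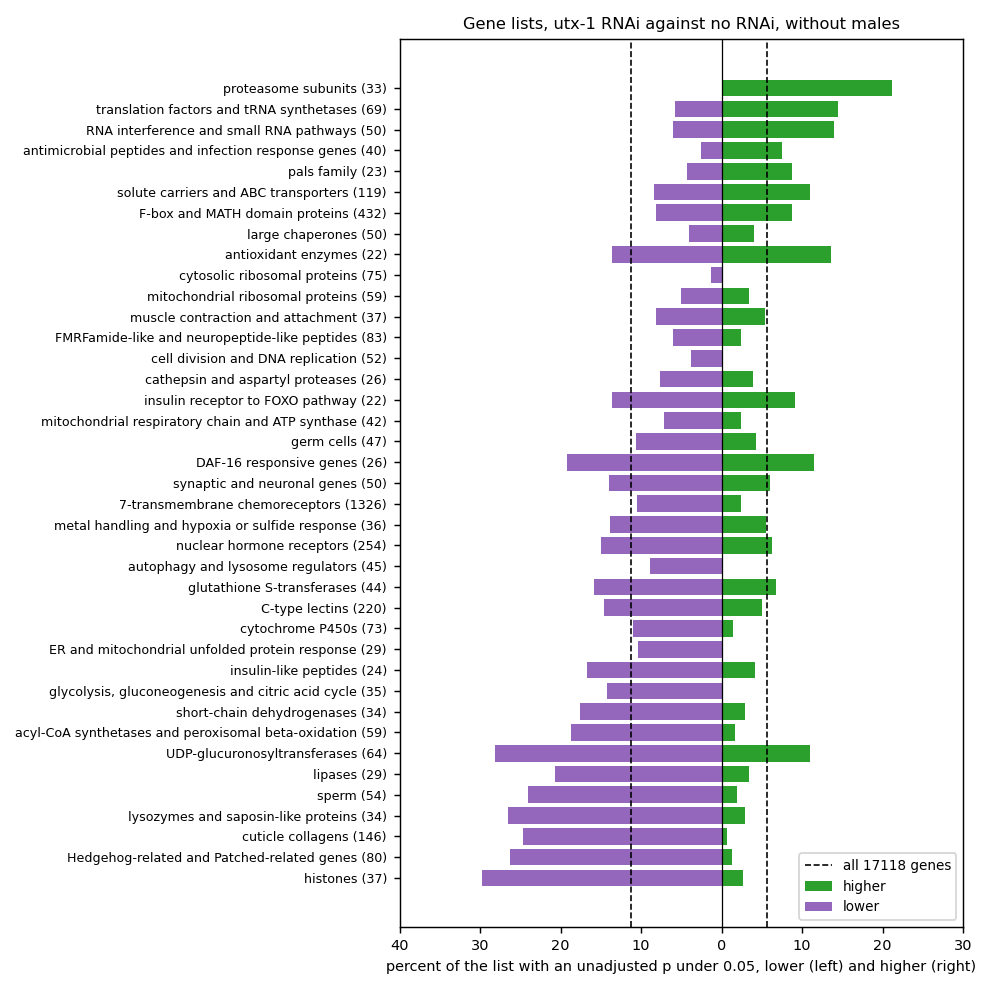
Percent of each gene list (number of genes in brackets, lists of at least 20) with an unadjusted p under 0.05, drawn to the right where higher and to the left where lower under utx-1 RNAi than with no RNAi, without males. The dashed lines mark all 17118 genes, 5.67% higher and 11.2% lower; on this scale histones, Hedgehog-related genes and collagens reach furthest to the left on balance and proteasome subunits furthest to the right, while with centred arrays histones had 6 lower and 5 higher.

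The plates with males gave a second look at the same treatment with no array in common. There 3165 probe sets passed (14.0%, with 8.96% up), and of the 37 called without males 36 had the same sign with males and 20 also passed. At 34 of the 37, which were picked by their values without males, the difference was smaller in size with males. For pnp-1 it was -0.53 without and -0.09 with males at the called probe set, and -0.14 and -0.12 at the other. For unc-104 it was -0.62 and -0.14 at the called probe set. The other unc-104 probe set went the opposite way, at 0.11 without and -0.37 with males, a difference between the settings of 0.48 (adjusted p = 0.0194). For the 29 falls, 28 were below 0 with males, where 62.4% of all probe sets were, and for the 8 rises all were above 0, where 37.6% were. Among the genes that passed in both settings were try-5, at -1.21 without and -1.27 with males (adjusted p = 0.00134 with males), and nep-22, at 0.87 and 0.88 (adjusted p = 0.000455 with males). Likewise ugt-66 had -1.29 and -1.14 (adjusted p = 0.00323 with males), and F19C7.2 had 0.72 and 0.65 (adjusted p = 0.00129 with males). For spp-12 the values were -2.02 without and -1.63 with males (adjusted p = 0.005 with males).

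**Figure D4:**
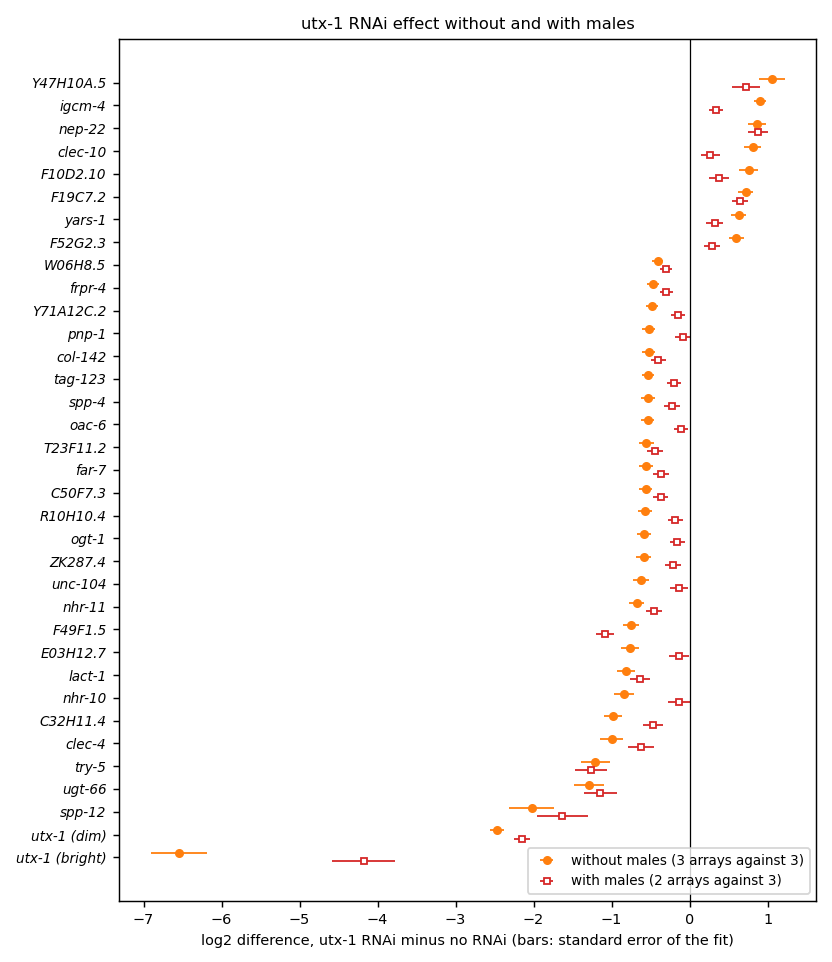
Log2 difference, utx-1 RNAi minus no RNAi (horizontal axis, bars are standard errors of the fit), of each called probe set with 1 gene symbol, without males (filled circles) and with males (open squares). All 35 point the same way in both settings, and the bright utx-1 probe set stands at -6.55 without males and at -4.18 with males.

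The difference between both settings was tested itself, and passed for 1725 probe sets (7.65%), 5 of them among the 37. Since the 37 were chosen by their effect without males, a larger effect there is partly a matter of that choice. The rise of igcm-4 was larger without males (0.90) than with males (0.34), a difference of 0.57 (adjusted p = 0.0132). At its called probe set the fall of nhr-10 was -0.84 without males and -0.14 with males, a difference of -0.70 (adjusted p = 0.046). Its other probe set showed -0.32 without and -0.31 with males, a difference of -0.01 (adjusted p = 0.981), so the probe sets of nhr-10 disagree on this. The fall of E03H12.7 was -0.77 without and -0.14 with males, a difference of -0.63 (adjusted p = 0.038). The brighter utx-1 probe set differed by -2.37 (adjusted p = 0.0179), and the dimmer one did not pass (adjusted p = 0.226). The probe set shared by several genes read 8.89, 8.80 and 9.06 under utx-1 RNAi without males, against 10.19, 10.05 and 9.79 with no RNAi, and its difference of -1.1 was 0.15 with males (difference of both -1.24, adjusted p = 0.00915).

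Germ cell and oocyte genes differed between the settings. Of 47 germ cell genes 0 rose without males and 42 with males, at a median there of 1.60, and the test of the difference passed for 40, all lower without males. Of all 17118 genes 1608 rose with males, at a median of -0.06, and the difference passed as lower without males for 1176. The synaptonemal complex gene syp-2 had -0.45 (adjusted p = 0.0949) without males and 1.35 with males. Of 19 oocyte and eggshell genes 0 rose without males and 17 with males, and the difference passed for 17. For oma-1, which encodes an oocyte maturation protein, the values were -0.49 (adjusted p = 0.11) without males and 1.94 with males. The oocyte markers averaged 7.66 to 7.81 under utx-1 RNAi with males, a group of 2 arrays, and 3.51 to 3.81 with no RNAi and males, and their part in the differences between the settings was not tested. With that group left out of the fit the comparison without males gave 40 calls.

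**Figure D5:**
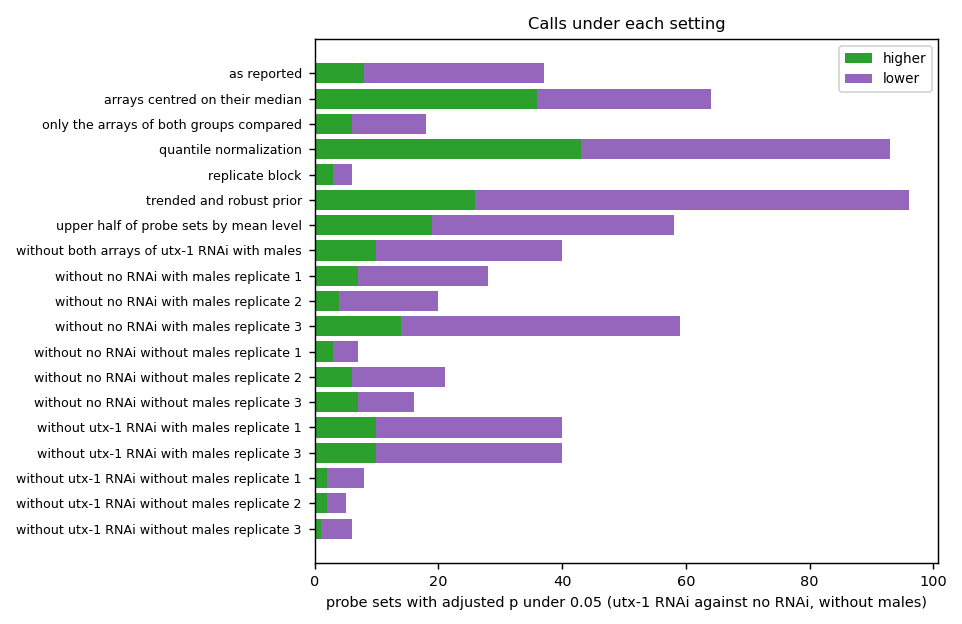
Number of probe sets with an adjusted p under 0.05 (horizontal axis), higher or lower under utx-1 RNAi than with no RNAi without males, as reported and under each other setting. The bars run from 5 without replicate 2 of utx-1 RNAi to 96 with a trended and robust prior, and the 37 as reported lie between them.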

How the data were processed

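Per the submitters' processing notes, the authors used RMA to turn the arrays into the deposited table of log2 values. The sources used here do not name the RMA version, its settings or a genome build. Of 22625 probe sets 77 were controls and were left out. The platform annotation gave 1 gene symbol to 20766 of the other 22548, several symbols to 887, which were named for no gene, and none to 895. RefSeq's gene table (assembly WBcel235) matched 20701 by gene identifier and served for names and gene order.

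Groups came from the titles. For 2 utx-1 RNAi arrays the title and the description give different replicate numbers, and titles were used. All 11 arrays entered a linear model of 4 group means (limma 3.58.1, R 4.3.3, default eBayes, 7 residual and 4.84 prior degrees of freedom). The procedure was also run on simulated data with independent noise and no shift of whole arrays. That run therefore does not bear on how far the calls depend on single arrays or on centring. Benjamini-Hochberg adjustment ran over the 22548 probe sets of a comparison, with a threshold of 0.05. Rose, fell and changed mean past it, and each adjusted p is limma's. The number of arrays limits the precision. Within groups, arrays correlated at 0.996 to 0.997 under utx-1 RNAi and 0.996 to 0.998 with no RNAi across probe sets. Between these groups they correlated at 0.992 to 0.996, so the ranges within and between groups overlapped.

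The rule named the 15 largest rises and the 15 largest falls (fewer where fewer passed) without overlap of groups, up to 4 members of each of 49 lists by smallest p (brightest probe set of a gene), utx-1 and its neighbours, glp-1, daf-2, daf-16, sod-3, acdh-1, vit-2 and jmjd-3.1, and up to 12 genes by the difference between both settings. The smaller falls and the genes set beside them were named after their values were seen. Members and lists were chosen with earlier results of these data known, and a list's count or median is a description without a test. The numbers were not taken as pairs. Deviations of same-numbered arrays of the groups correlated at r of -0.114, 0.0506 and -0.151, and those of other pairs at -0.0914 to 0.224. With 3 arrays a group and replicate numbers that differ between title and description, this check cannot exclude pairing. Alternatives were centred arrays, quantile normalization, a trended and robust prior, only the 6 arrays, the brighter part of the probe sets, a replicate block and leaving out each array.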

Additional observations from a re-analysis of the deposited data

Results flagged for a closer look

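In 5 of the 37 probe sets called without males, the utx-1 RNAi effect differed between plates without and with males by limma's test of the difference itself. The 37 were chosen by their effect without males, which is also 1 side of this difference, so the choice and the test are not independent. The differences, without minus with males on the log2 scale, were -2.37 for utx-1 at its brighter probe set, 0.57 for igcm-4, -0.63 for E03H12.7, -0.70 for nhr-10 and -1.24 for the probe set shared by several genes. The adjusted p-values were 0.0179, 0.0132, 0.038, 0.046 and 0.00915 in that order. The other probe set of nhr-10 had a difference of -0.01 (adjusted p = 0.981) and the dimmer one of utx-1 had -0.32 (adjusted p = 0.226). The group of utx-1 RNAi with males had 2 arrays.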

How the results depend on the processing

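The 37 calls of utx-1 RNAi against no RNAi without males became 64 with each array centred on its median, 93 after quantile normalization, 96 with a trended and robust prior, 58 over the brighter probe sets by mean level, 18 with only the 6 arrays compared in the fit and 6 with a replicate block. Leaving out 1 array gave 5 to 59. Each of the 6 arrays compared moved it by over 1.5 times: without replicates 1, 2 and 3 of utx-1 RNAi it was 8, 5 and 6, and without replicates 1, 2 and 3 of no RNAi 7, 21 and 16. Of the arrays with males, which bear on the shared spread alone, leaving out no RNAi replicates 2 and 3 gave 20 and 59. The cause was not tested. The alternatives that leave out an array with males, or both of utx-1 RNAi with males, were chosen after seeing the data.

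The comparison with males, 3165 as reported, had 5012 calls with centred arrays and 1476 to 2913 when 1 array was left out. The difference between both settings, 1725 as reported, had 1100 over the brighter probe sets and 1137 to 1706 when 1 array was left out; both minima came from omitting replicate 1 of the utx-1 RNAi group kept with males. The 9 genes of the lists that were called became 5 with only the 6 arrays, 15 after quantile normalization, 1 with the replicate block, 18 with a trended and robust prior, 14 over the brighter probe sets and 1 to 15 when 1 array was left out.

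Several list medians near 0 turned sign with centred arrays. Among them were H3K27 enzymes, from -0.02 to 0.02 (0.06 without no RNAi replicate 1), and RNAi pathways, from -0.01 to 0.03. The list from insulin receptor to FOXO went from -0.0019 to 0.038. The median of all probe sets turned as well, from -0.03 to 0.01. Of the probe sets named, 5 that were never called turned sign. With centred arrays dhhc-14 had 0.0025, a dim daf-2 probe set 0.023 and vit-2 0.0049, and after quantile normalization that daf-2 probe set had 0.0075 and vit-2 0.020. Leaving out 1 array spread dhhc-14 over -0.090 to 0.00065, glp-1 over -0.156 to 0.248 and daf-2 over -0.094 to 0.109 and -0.052 to 0.0092 at its probe sets.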
